A study of Mus musculus and Homo sapiens with 11 samples.

Results

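Cadherins and protocadherins were followed in mouse mammary tumour cells of the MMTV-ErbB2 line, taking every gene of the table whose symbol names a numbered cadherin (Cdh), a desmosomal cadherin (Dsg, Dsc), a FAT cadherin (Fat1 to Fat4) or a protocadherin (Pcdh). That gave 107 of the 24062 genes listed: 23 numbered cadherins, 9 desmosomal cadherins, 4 FAT cadherins, 12 protocadherins outside the gene clusters and 59 clustered protocadherins. The members were chosen by name, with earlier results of these data known. The samples were 3 libraries of a brain metastatic derivative of the line, which the labels call BrM 2a and which is called BrM here, and 3 libraries of the parental line. Both groups carry MMTV-ErbB2 by name, in which the mouse mammary tumour virus promoter drives the receptor tyrosine kinase ErbB2 (HER2) in mammary epithelium, and the labels report no treatment of either. Whether the derivative is a single clone or a mixed population was not given in the sources used here. RNA came from cell pellets, and the growth protocol describes cultured cells, although the labels do not say so library by library and the series' design text speaks of brains harvested from mice given human lines. The comparison asks how the derivative differs from the line it was taken from.

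Cadherins are transmembrane proteins whose repeated extracellular domains are stiffened by calcium and bind cadherins on the neighbouring cell. Classical cadherins hold catenins at their cytoplasmic tails and so couple cell contacts to actin, whereas desmosomal cadherins couple them to keratin filaments. E-cadherin is the main adhesive cadherin of mammary epithelium, P-cadherin marks the basal layer of the gland, and N-cadherin is typical of neurons and mesenchymal cells. Clustered protocadherins are best known from neurons, where each cell makes its own combination of isoforms from neighbouring gene arrays called alpha, beta and gamma.

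The BrM libraries held 29877087, 38512988 and 39106969 reads assigned to genes in replicates 1, 2 and 3, and the parental libraries held 39304974, 46683735 and 40140819. Values are scaled read counts, that is, reads divided by the authors by 1 factor per library. The labels do not say whether a group's libraries are separate cultures, so the p-values measure a spread that may be technical. BrM replicate 1 stood apart from the other BrM libraries: 3614 and 3654 genes differed at least 2-fold between it and the other 2, which differed from each other at 220 genes, against 976 to 1683 between parental libraries. Mammary epithelial markers were abundant in both lines, with summed levels of 198000 to 243100 in BrM and 119500 to 132300 in parental libraries. The kit (TruSeq or NEBNext) and the medium (DMEM or RPMI) of each library are not given, so kit, medium and derivative cannot be told apart.

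Of the 107 members, 19 were at 0 in all 6 libraries and 41 more had a mean value under 10, which left 47 tested. A gene present in 1 line only passes that filter through that line. Among the 47, limma called 7 higher and 15 lower in BrM at an adjusted p under 0.05, while 25 did not pass. That is 46.8% of the tested members, beside 28.1% of the 13821 genes tested in all, where 12.2% were higher and 15.8% lower. By class, the share called was 72.7% of 11 tested numbered cadherins, 66.7% of 3 FAT cadherins and 0% of 3 desmosomal cadherins. It was 57.1% of 7 protocadherins outside the clusters and 34.8% of 23 clustered ones. Of the 47 tested members, 22 were called and 20 were called with a difference of at least 2-fold. Among all tested genes, 19.2% were called with a difference of that size. The median log2 fold change, BrM minus parental, was -0.51 over the tested members and -0.05 over all tested genes. The groups did not overlap for 31 of the 47 members, with BrM above for 11 and below for 20, beside 48% of all tested genes. Without BrM replicate 1 the members called numbered 26, when 47.2% of all genes were called. Of the 47, edgeR called 22 and DESeq2 called 26, beside 27.2% and 36.7% of all genes. Limma called 23 after scaling to a common upper quartile and 21 with the replicate number as a block of 3 levels, beside 27.9% and 29.2%. In bulk RNA, fewer cells that make a transcript and less transcript per cell cannot be told apart.

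The classical cadherins of type I, those of the E-cadherin kind, fell in BrM or did not pass. Of 5 members 4 were tested, 3 of them lower and none higher. E-cadherin (Cdh1, ENSMUSG00000000303.12, GRCm38 chr8:106603351-106670246, plus strand) had scaled counts of 16604, 15273 and 15885 in BrM libraries 1, 2 and 3, against 24994, 26394 and 22773 in the parental libraries. All BrM libraries lay below all parental ones, and the level was 1.55-fold lower (log2 fold change -0.63 ± 0.12, SE, n = 3 libraries per group; adjusted p = 0.0113). The adjusted p of Cdh1 ran from 2e-06 to 0.113 over 19 alternative analyses. The call was lost in 5 of them, among them those without BrM replicate 2, BrM replicate 3 or parental replicate 2.

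N-cadherin (Cdh2, on chromosome 18) counted 0, 6.70 and 7.45 in BrM libraries, against 470.2, 694 and 432 in parental libraries. It was thus detected in each parental library, at a level well below that of Cdh1, and near 0 in each BrM library. The level was 130-fold lower on the log2(value + 1) scale (log2 fold change -7.02 ± 0.85, adjusted p = 0.0021). Without BrM replicate 1, the library with no Cdh2 read, the fold was 64.7. P-cadherin (Cdh3), which lies next to Cdh1 on chromosome 8 (chr8:106510891-106557297), counted 18.3, 22.0 and 14.9 in BrM libraries, against 68.2, 305 and 275 in parental libraries. Every BrM library lay below every parental one, with a 9.38-fold lower level (log2 fold change -3.23 ± 0.61, adjusted p = 0.0106), or 15.1-fold without parental replicate 1, the lowest of its group. M-cadherin (Cdh15), known from muscle, counted 3.66, 10.5 and 10.2 in BrM libraries, against 2.04, 47.0 and 32.1 in parental libraries. Those groups overlapped, and the log2 fold change of -1.0 ± 1.09 did not pass (adjusted p = 0.533). Leaving out parental replicate 1 moved its fitted fold to 4.71 and leaving out parental replicate 2 moved it to 1.19, against 2.00 with all libraries. R-cadherin (Cdh4), known from the retina, had 3 reads over the BrM libraries and 1 over the parental libraries, too few to test.

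**Figure D1:**
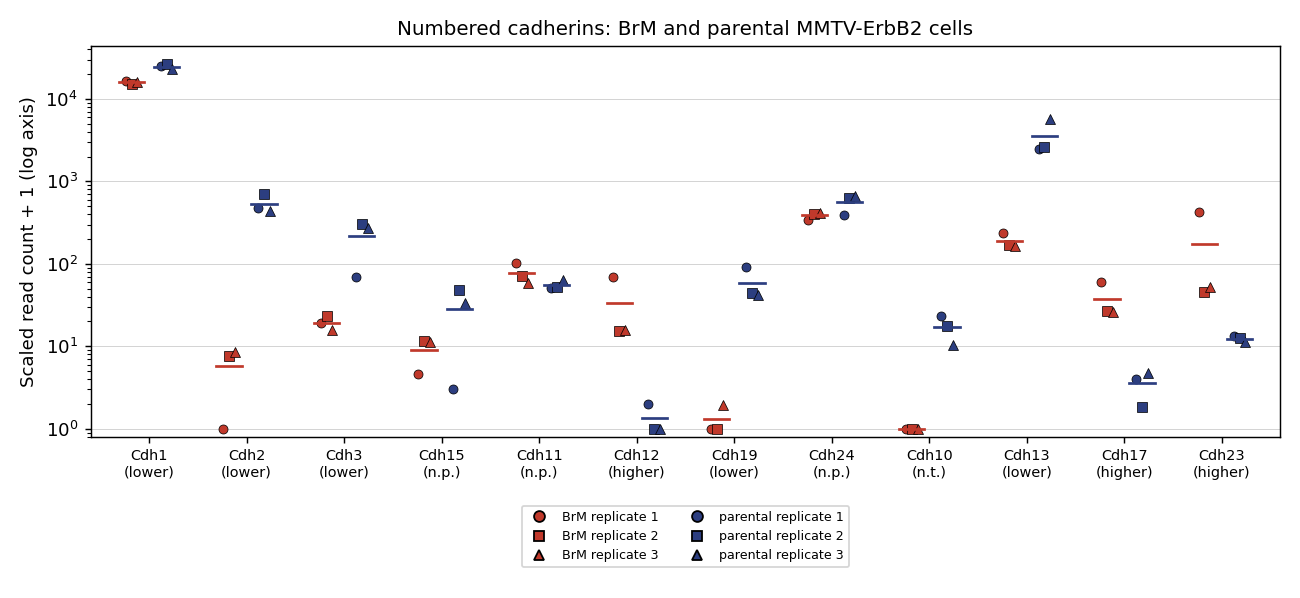
Scaled read counts plus 1 (log axis) of 12 numbered cadherins in each library, with BrM libraries in red on the left and parental libraries in blue on the right of each gene, 3 per group, and lines at the group means. The word under each symbol gives the result of the test (n.p., not passing; n.t., not tested). Cdh1 has the highest count in all 6 libraries, Cdh2, Cdh3, Cdh13 and Cdh19 lie lower in BrM, and Cdh12, Cdh17 and Cdh23 lie higher.

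Type II classical cadherins went in both directions. Of 13 members 4 were tested, with 1 higher, 1 lower and 2 not passing. Cdh12, a cadherin of the nervous system also called brain cadherin, counted 68.4, 14.3 and 14.9 in BrM libraries, against 1.02, 0 and 0 in parental libraries. BrM replicate 1 was the highest, and each BrM library lay above each parental one. With 87 reads in BrM and 1 in the parental line, the ratio of reads after scaling was 96.4 (exact 95% interval 16.9 to 3851, which covers counting error only), and limma called it higher (adjusted p = 0.00704). Its fitted fold, which depends on the pseudocount, was 20.3 with all libraries and 12.4 without BrM replicate 1.

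Cdh19, known from the Schwann cell lineage, had 0, 0 and 0.93 in BrM libraries, against 89.5, 43.6 and 40.6 in parental libraries. It was all but undetected in BrM, with 1 read against 184 in the parental line, a 166-fold lower ratio (29.4 to 6594) and a lower call (adjusted p = 0.000912). Cdh11, a cadherin of osteoblasts and mesenchyme, counted 103, 70.8 and 57.7 in BrM libraries, against 49.9, 51.1 and 62.3 in parental libraries. The groups overlapped and the log2 fold change of 0.46 ± 0.33 did not pass (adjusted p = 0.336). Cdh24, a less studied type II cadherin, counted 343, 402 and 417 in BrM libraries, against 389, 633 and 672 in parental libraries. The lowest parental library lay within the BrM range (log2 fold change -0.51 ± 0.26, adjusted p = 0.195).

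Among the type II members below the filter, only Cdh10 differed clearly in reads. Cdh10, a cadherin of the nervous system, had no read in any BrM library, against 22.4, 16.5 and 9.44 in parental libraries. Its 52 parental reads place it at least 15.6-fold lower in BrM, taking 3 reads over the BrM group as the floor, and with the filter set at a mean of 1 it was called lower (adjusted p = 0.00154). VE-cadherin (Cdh5), the defining cadherin of endothelium, had 5 reads in BrM and 2 in the parental line. The other 7 type II members had at most 5 reads in either group.

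The numbered cadherins outside the classical types, 3 of 5 tested, were all called. T-cadherin (Cdh13), which is held in the membrane by a lipid anchor and lacks a cytoplasmic tail, counted 236, 166 and 163 in BrM libraries, against 2486, 2611 and 5642 in parental libraries. The groups were far apart, and the level was 17.8-fold lower (log2 fold change -4.15 ± 0.36, adjusted p = 0.0006). LI-cadherin (Cdh17), a cadherin of liver and intestine, counted 58.6, 25.8 and 25.1 in BrM libraries, against 3.05, 0.82 and 3.78 in parental libraries. It was 10.6-fold higher (log2 fold change 3.40 ± 0.57, adjusted p = 0.00705), with BrM replicate 1 the highest library. Cdh23, which forms the tip links of inner ear hair cells together with Pcdh15, counted 421, 45.0 and 51.2 in BrM libraries, against 12.2, 11.5 and 10.4 in parental libraries. Its 8.13-fold higher level (log2 fold change 3.02 ± 0.86, adjusted p = 0.0422) was 3.97-fold without BrM replicate 1. The call was lost in 7 of the 19 alternatives, among them those without BrM replicate 3 or without any 1 of the parental libraries (adjusted p 0.00018 to 0.118 over all 19).

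The sequence before the start of Cdh23 is shown here, and those of Fat4 and Pcdh9 beside their values, because these are called members whose start in RefSeq (GRCm38.p6) is also the outer start of the GENCODE gene. Capitals mark CG dinucleotides, the usual sites of DNA methylation. All 32851 RefSeq windows of the same 250 bases held a median of 6 and an upper quartile of 16 of them. The Cdh23 window, chr10:60696491-60696740 on the minus strand, held 5 and a GC content of 54.4%, beside a median of 52.4% over all windows.
Cdh23: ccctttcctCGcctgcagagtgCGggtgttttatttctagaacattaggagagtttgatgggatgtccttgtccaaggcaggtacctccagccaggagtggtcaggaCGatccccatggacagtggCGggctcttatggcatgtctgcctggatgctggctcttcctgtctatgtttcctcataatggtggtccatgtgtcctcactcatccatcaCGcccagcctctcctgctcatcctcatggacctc

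Of 9 markers of fibroblasts and pericytes 5 were tested and 3 were lower in BrM: Pdgfrb, Dcn and Col1a2. Col1a1 and Pdgfra overlapped between the groups and did not pass in limma (adjusted p = 0.522 and 0.332). Over all tested genes 28.1% were called. The summed level of the 9 markers was 212 to 997 in BrM and 1568 to 5896 in parental libraries. Pdgfrb counted 0, 0.96 and 3.73 in BrM libraries, against 2765, 3683 and 1002 in parental libraries. Lum was at 0 in all 6 libraries, Dcn at 0 in every BrM library, and Thy1 at 0 in BrM and at no more than 1.65 in any parental library. Endothelial markers summed to 6.52 to 51.3 in BrM and 27.4 to 37.7 in parental libraries, with Cldn5 at 0 in all. Neuronal markers summed to 1918 to 2084 in BrM and 1561 to 2626 in parental libraries, with 1 higher and 1 lower of 2 tested and Nefl at 0 in all. Astrocyte markers summed to 14950 to 16210 in BrM and 16550 to 25460 in parental libraries, most of it the connexin Gja1, which did not pass (adjusted p = 0.869). Of 5 astrocyte markers tested 1 was higher, Gfap, at 105 ± 29.9 in BrM and 23.4 ± 5.08 in parental libraries (SD, n = 3 each), and 3 were lower in the direction of the cadherins that fell. Slc1a3 had 0, 0.96 and 0 in BrM libraries, against 730, 1806 and 2655 in parental libraries. Aldh1l1 had 3.66, 0 and 0 in BrM libraries, against 2615, 2238 and 839 in parental libraries. Slc1a2 had 80.6, 17.2 and 22.4 in BrM libraries, against 1750.4, 1158 and 665 in parental libraries. These 3 were thus low or near 0 in BrM, while Aqp4 was at 0 in 5 of the 6 libraries. Oligodendrocyte markers summed to 2110 to 2196 in BrM and 981 to 1303 in parental libraries, nearly all of it Mbp, which was 1.82-fold higher, with Olig1 and Olig2 at 0 in all. Microglial and macrophage markers summed to 309 to 750 in BrM and 324 to 549 in parental libraries, with 2 of 5 tested higher, Csf1r 49.1-fold and P2ry12 14.1-fold, and Ptprc at no more than 4.88 in any library. The other tested markers of that list did not pass in limma. Tmem119 was 13.6-fold lower (adjusted p = 0.0586), Aif1 5.24-fold lower (adjusted p = 0.112) and Cx3cr1 1.24-fold lower (adjusted p = 0.621). The part of other cell types in the cadherin results was not tested.

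Levels between genes were compared per kilobase of annotated exon. On that scale E-cadherin made up most of the summed level of the numbered cadherins in both lines. Outside that class, Fat1 stood at 1060 per kilobase in BrM and 1220 in the parental line, beside 3480 and 5400 for Cdh1. Cdh1 took 95.4% ± 0.25 of the summed level of numbered cadherins per kilobase in BrM and 89.6% ± 3.61 in parental libraries (SD, n = 3 each). The share of T-cadherin, the next highest in the parental line, was 0.457% ± 0.081 in BrM and 5.34% ± 2.85 in parental libraries. N-cadherin took 0.0164% ± 0.0142 in BrM and 1.09% ± 0.23 in parental libraries. The summed scaled count of the 23 numbered cadherins was 16850 ± 928 in BrM and 29790 ± 1119 in parental libraries, most of it Cdh1.

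No desmosomal cadherin passed the test. Of 9 members 3 were tested; limma called 0, with 0 at an unadjusted p under 0.05, and edgeR and DESeq2 called 0. Desmoglein 2 (Dsg2), the desmoglein of simple epithelia, counted 2361, 1504 and 1732 in BrM libraries, against 2109.6, 2209.9 and 2738 in parental libraries. Its groups overlapped through BrM replicate 1 (log2 fold change -0.35 ± 0.21, adjusted p = 0.254). Without that library it was called lower (adjusted p = 0.0286, the lowest of its alternatives, which ran up to 0.729). Desmocollin 2 (Dsc2), its partner in desmosomes, counted 2335, 746 and 789 in BrM libraries, against 744, 482 and 488 in parental libraries. Each BrM library lay above each parental one, but BrM replicate 2 and parental replicate 1 were nearly level, and the log2 fold change of 0.99 ± 0.47 did not pass (adjusted p = 0.164). Desmoglein 3 (Dsg3), a desmoglein of stratified epithelia, counted 62.3, 150.2 and 149.9 in BrM libraries, against 99.7, 61.0 and 243 in parental libraries. These groups overlapped widely (log2 fold change -0.03 ± 0.60, adjusted p = 0.979).

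Per kilobase, Dsg2 took 48.8% ± 8.8 of the desmosomal cadherin level in BrM and 69.0% ± 6.0 in parental libraries. Dsc2 took 46.7% ± 11.5 in BrM and 26.4% ± 7.2 in parental libraries (SD, n = 3 each). The summed scaled count of the class was 3280 ± 1292 in BrM and 3061 ± 368 in parental libraries. The remaining 6 members had at most 5 reads in either group, and Dsc3 and Dsg1b had none.

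**Figure D2:**
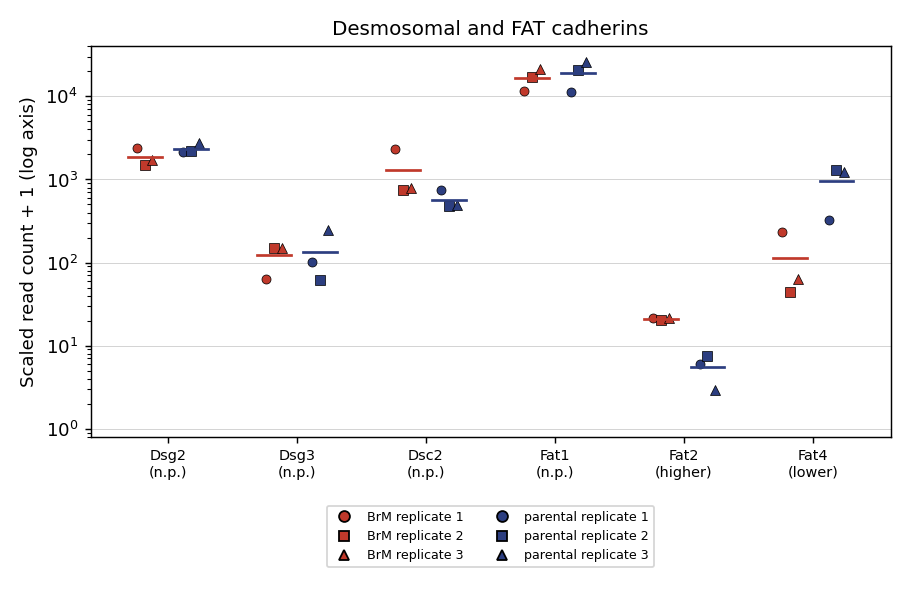
Scaled read counts plus 1 (log axis) of the tested desmosomal and FAT cadherins in each library, BrM in red on the left and parental in blue on the right of each gene, 3 libraries per group, with lines at the group means. The points of Dsg2, Dsg3 and Fat1 overlap between the lines, Dsc2 lies above in BrM without passing, Fat2 lies higher in BrM and Fat4 lower.

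FAT cadherins are very large proteins with many cadherin repeats that act in planar polarity and growth control. Of 4 members 3 were tested, with 1 higher, 1 lower and 1 not passing. Fat1, the abundant member of both lines, counted 11569.5, 17224 and 21231 in BrM libraries, against 11136, 20479 and 25677 in parental libraries. The groups overlapped over nearly their whole range (log2 fold change -0.16 ± 0.36, adjusted p = 0.78). Fat4, the receptor of the Dachsous cadherin Dchs1, counted 232, 43.0 and 62.4 in BrM libraries, against 328, 1306 and 1234 in parental libraries. It was 9.34-fold lower (log2 fold change -3.22 ± 0.79, adjusted p = 0.0252), with BrM replicate 1 the highest BrM library and parental replicate 1 the lowest parental one. The fold was 15.3 without BrM replicate 1 and 14.7 without parental replicate 1. The call was lost in 7 of the 19 alternatives, among them those without BrM replicate 2 or 3 or parental replicate 2 or 3 (adjusted p 0.000286 to 0.116 over all 19).

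Fat2, known from cerebellar granule cells, counted 20.8, 19.1 and 20.5 in BrM libraries, against 5.09, 6.59 and 1.89 in parental libraries. All BrM libraries lay above all parental ones, 4.13-fold higher (log2 fold change 2.05 ± 0.48, adjusted p = 0.023). That call was lost in 5 of the 19 alternatives, among them those without BrM replicate 2, BrM replicate 3 or parental replicate 1 (adjusted p 0.0129 to 0.231 over all 19). Fat3 had 1 read in each line. Per kilobase, Fat1 took 99.1% ± 0.94 of the FAT level in BrM and 95.9% ± 1.4 in parental libraries (SD, n = 3 each), and Fat4 took most of the rest in the parental line. The Fat4 window, chr3:38886690-38886939 on the plus strand, held 11 CG dinucleotides, in capitals, and a GC content of 54.8%.
Fat4: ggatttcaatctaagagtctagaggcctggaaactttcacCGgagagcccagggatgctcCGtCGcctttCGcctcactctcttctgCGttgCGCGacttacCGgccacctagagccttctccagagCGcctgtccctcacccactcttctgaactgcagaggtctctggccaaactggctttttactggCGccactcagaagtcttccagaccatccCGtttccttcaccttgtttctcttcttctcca

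Protocadherins outside the clusters, called non-clustered or delta protocadherins for the most part, differed member by member. Of 12 members 7 were tested, with 3 higher, 1 lower and 3 not passing, and their median log2 fold change was -0.02. Pcdh1, an adhesion protein of airway and other epithelia, counted 4822, 4482 and 4696 in BrM libraries, against 2890.1, 2239 and 2976 in parental libraries. Its BrM libraries lay close together and all above the parental ones, 1.74-fold higher (log2 fold change 0.80 ± 0.15, adjusted p = 0.00948). That call was lost in 1 of the 19 alternatives, the fit of the 4 numbered libraries with their number as a block (adjusted p = 0.0685, from 2.3e-05 over all 19). Per kilobase it was the highest of this class in BrM, at 530, against 307 in the parental line, where Pcdh7 was the highest, at 193 in BrM and 409 in the parental line.

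Pcdh7, described in brain metastasis models as a partner of connexin 43 junctions between cancer cells and astrocytes, counted 2091, 1916 and 2135 in BrM libraries, against 3629, 2546 and 6839 in parental libraries. All BrM libraries lay below all parental ones, but the parental spread was wide and the log2 fold change of -0.96 ± 0.34 did not pass (adjusted p = 0.0826). It passed in 2 of the 19 alternatives, DESeq2 and the fit without parental replicate 2 (adjusted p 0.0205 to 0.204 over all 19). Its exons overlap those of 4932441J04Rik on the other strand, and the strand setting of the counting was not given in the sources used here. Pcdh9, a delta protocadherin of the nervous system, counted 3.66, 0 and 0 in BrM libraries, against 28.5, 28.0 and 8.50 in parental libraries. With 3 reads in BrM and 71 in the parental line, its ratio of reads was 21.4-fold lower (exact 95% interval 7.02 to 106) and was called lower (adjusted p = 0.02). The call was lost in 5 of the 19 alternatives, among them those without BrM replicate 2 or 3 or parental replicate 1 or 2 (adjusted p 0.00303 to 0.0815 over all 19). The fitted fold was 12 with all libraries and 20.1 without BrM replicate 1, which held all its BrM reads. The Pcdh9 window, chr14:93890680-93890929 on the minus strand, held 18 CG dinucleotides, in capitals, and a GC content of 63.6%.
Pcdh9: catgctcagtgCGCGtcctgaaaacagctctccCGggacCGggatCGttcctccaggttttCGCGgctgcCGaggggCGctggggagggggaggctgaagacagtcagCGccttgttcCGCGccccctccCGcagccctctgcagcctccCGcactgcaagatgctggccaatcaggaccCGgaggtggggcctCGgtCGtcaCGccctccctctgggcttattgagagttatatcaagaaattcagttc

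Pcdh12, also called VE-cadherin 2 and known from endothelium and placenta, counted 40.3, 22.0 and 35.4 in BrM libraries, against 3.05, 3.29 and 0.94 in parental libraries. It was 10.1-fold higher with no overlap (log2 fold change 3.33 ± 0.50, adjusted p = 0.00446), while endothelial markers summed to no more than 51.3 in any library. The fit of the numbered libraries with a block was the only alternative of 19 to end that call (adjusted p = 0.0572, from 4.7e-05 over all 19). Pcdh15, the partner of Cdh23 in tip links, counted 63.5, 36.3 and 26.1 in BrM libraries, against 7.12, 17.3 and 8.50 in parental libraries. It was 3.59-fold higher (log2 fold change 1.84 ± 0.51, adjusted p = 0.0382), so that both genes of the tip link pair were called higher. The call of Pcdh15 was lost in 8 of the 19 alternatives, among them those without BrM replicate 2 or 3 or parental replicate 1 or 3 (adjusted p 0.0165 to 0.156 over all 19).

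Both tested delta-2 protocadherins did not pass. Pcdh18 counted 231, 524 and 610.0 in BrM libraries, against 393, 864 and 663 in parental libraries, with overlap (log2 fold change -0.54 ± 0.46, adjusted p = 0.423). Pcdh19, the X-linked gene of a human epilepsy of females, counted 53.7, 444 and 464 in BrM libraries, against 142, 604 and 136 in parental libraries. The libraries of each line spread widely and overlapped, and the log2 fold change was -0.02 ± 0.99 (adjusted p = 0.987). Its direction turned with single libraries, to 0.99 without BrM replicate 1 and 0.68 without parental replicate 2, with no call in either. Pcdh10, below the filter, had 15 reads in BrM and 2 in the parental line, an 8.31-fold ratio (exact 95% interval 1.93 to 74.9), and was called higher with the filter set at a mean of 1 (adjusted p = 0.0402). It is named here after its values were seen. Pcdh8 and Pcdh11x were at 0 in all libraries.

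**Figure D3:**
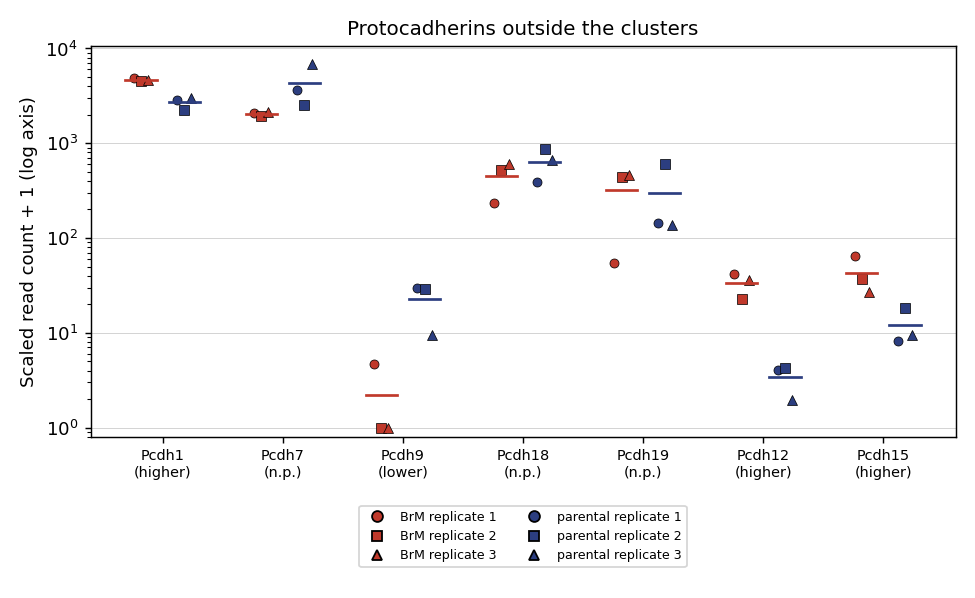
Scaled read counts plus 1 (log axis) of the 7 tested protocadherins outside the clusters in each library, BrM in red on the left and parental in blue on the right of each gene, 3 libraries per group, with lines at the group means. Pcdh1, Pcdh12 and Pcdh15 lie higher in BrM, Pcdh9 lies lower, and n.p. marks the genes that did not pass.

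The clustered protocadherins lie in 3 arrays on chromosome 18 (GRCm38): alpha at chr18:36930184-37187661, beta at chr18:37264938-37524479 and gamma at chr18:37661793-37841873. Of 59 members 23 were tested, 8 were lower, 15 did not pass and none was higher at the filter used. The median log2 fold change of those tested was -0.96. Summed over the class, scaled counts were 1758 ± 195 in BrM and 8734 ± 1498 in parental libraries (SD, n = 3 each), a difference that came almost wholly from the gamma array. In the alpha and gamma arrays each isoform joins its own first exon to constant exons shared by the array. The annotated exons of all 22 gamma members and all 12 alpha members with a position therefore overlap, how the authors' counting treated reads in shared exons was not given, and the values of single gamma isoforms are uncertain to that extent.

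The gamma array had the highest summed counts and the widest range of differences. Its summed scaled counts were 935, 929 and 1193 in BrM libraries, against 9052, 6295 and 8331 in parental libraries, so that the highest BrM library was far below the lowest parental one. Of its 22 members 14 were tested, 6 were lower and 8 did not pass, with log2 fold changes from -7.19 to 1.26 and a median of -1.86. Pcdhgc3, a C-type isoform at the end of the array that is known from many tissues, counted 465, 572 and 693 in BrM libraries, against 7301, 5014 and 6962 in parental libraries. It fell 11.1-fold (log2 fold change -3.48 ± 0.22, adjusted p = 0.000217) and took 56.5% ± 6.1 of the summed gamma count in BrM and 81.3% ± 2.0 in parental libraries. Pcdhgb7 counted 1.22, 0.96 and 8.38 in BrM libraries, against 569.9, 399 and 551 in parental libraries. The groups were far apart, and it was 146-fold lower on the log2(value + 1) scale (log2 fold change -7.19 ± 0.64, adjusted p = 0.000707), or 241-fold without BrM replicate 3.

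Further gamma isoforms fell as well. Pcdhgc4, a C-type isoform needed for the survival of mouse interneurons, counted 9.77, 6.70 and 9.31 in BrM libraries, against 107, 104 and 79.3 in parental libraries. It was 10.2-fold lower (log2 fold change -3.35 ± 0.33, adjusted p = 0.00105). Pcdhga6 counted 19.5, 21.0 and 20.5 in BrM libraries, against 185, 123 and 111 in parental libraries. Its BrM libraries were nearly level, and it was 6.43-fold lower (log2 fold change -2.69 ± 0.32, adjusted p = 0.00189). Pcdhgb4 counted 1.22, 1.91 and 5.59 in BrM libraries, against 65.1, 56.0 and 68.9 in parental libraries. It was 18.4-fold lower (log2 fold change -4.20 ± 0.50, adjusted p = 0.00201). Pcdhgb8, named after its values were seen, counted 48.8, 97.6 and 129 in BrM libraries, against 476, 334 and 325 in parental libraries and was 4.34-fold lower (adjusted p = 0.0109).

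Neighbouring gamma isoforms did not all go the same way. Of the 14 tested, 10 had a log2 fold change below 0 and 4 above 0, and none of those 4 passed. Pcdhgb6, which lies between Pcdhgb4 and Pcdhgb7 in the array and is named after its values were seen, counted 80.6, 57.4 and 48.4 in BrM libraries, against 32.6, 28.8 and 16.1 in parental libraries. All BrM libraries lay above all parental ones, but the log2 fold change of 1.26 ± 0.40 did not pass (adjusted p = 0.0585; it passed in 3 of the 19 alternatives, 0.028 to 0.32 over all). Pcdhga12 and Pcdhgc5 lay below the parental libraries without passing (adjusted p = 0.054 and 0.0619). Pcdhga12 passed in 4 of the alternatives and Pcdhgc5 in 3. Of the markers described above, 3 of 5 tested fibroblast and pericyte markers were lower in BrM, and the others did not pass. Of 5 tested astrocyte markers 3 were lower, Gfap was higher and Gja1 did not pass. The part of other cell types in the gamma results was not tested.

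**Figure D4:**
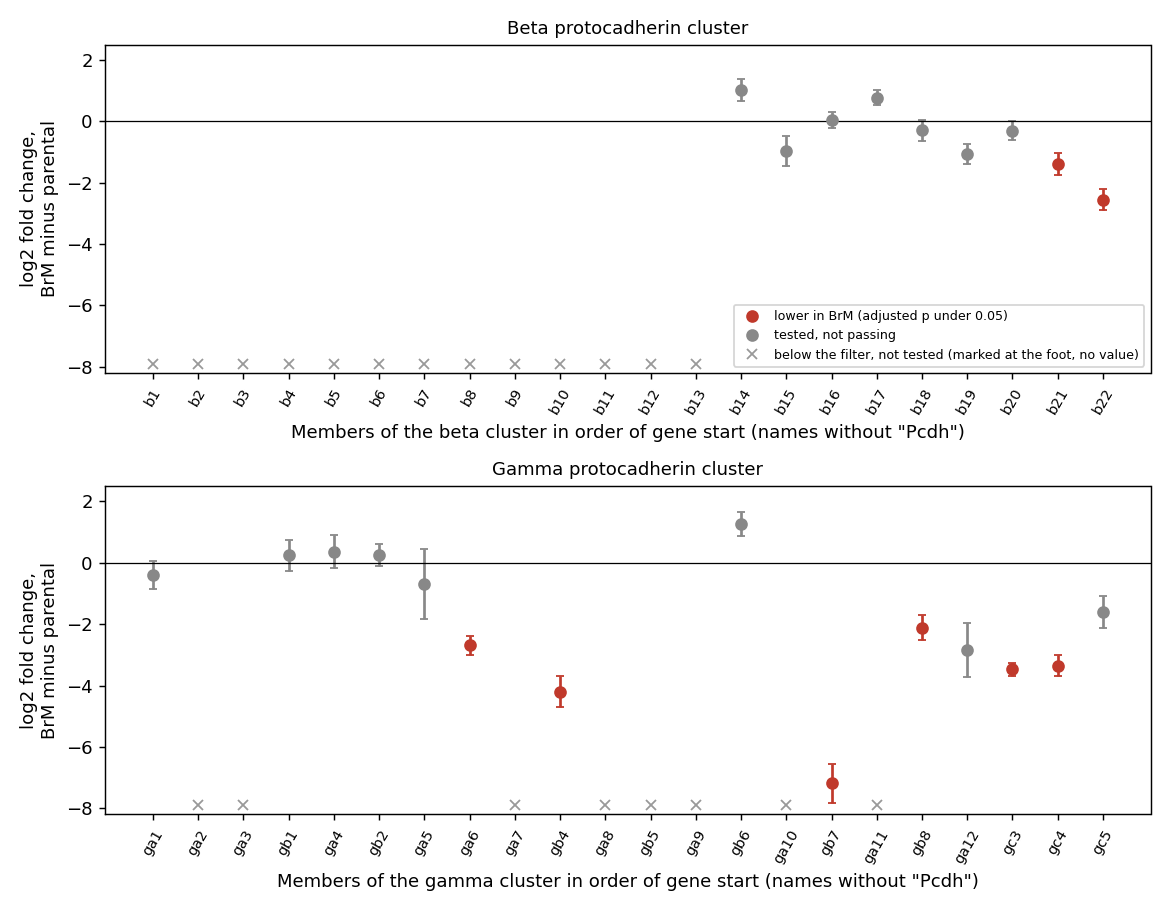
Log2 fold change, BrM minus parental, of each beta (top) and gamma (bottom) protocadherin in order along chromosome 18, with bars of 1 SE from limma (n = 3 libraries per group). Red points were called lower, grey points did not pass, and crosses at the foot mark members below the filter, which have no value. Called members lie at the end of the beta array and from Pcdhga6 onward in the gamma array.

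The beta array, whose genes have a single coding exon each, differed little in sum. Its summed scaled counts were 742, 686 and 787 in BrM libraries, against 876, 758 and 889 in parental libraries, with overlap. Of 22 members 9 were tested, 2 were lower and 7 did not pass, with log2 fold changes from -2.55 to 1.03 and a median of -0.31. The pair called stood last in the array. Pcdhb22 counted 52.5, 23.9 and 35.4 in BrM libraries, against 232, 188 and 220.0 in parental libraries, and was 5.85-fold lower (log2 fold change -2.55 ± 0.35, adjusted p = 0.00337). Pcdhb21, named after its values were seen, counted 13.4, 10.5 and 19.6 in BrM libraries, against 36.6, 40.4 and 37.8 in parental libraries. Its 2.60-fold lower level (adjusted p = 0.0321) lost its call in 10 of the 19 alternatives, among them those without each library in turn other than BrM replicate 1 (adjusted p 0.011 to 0.202 over all 19), and its annotated exons overlap those of Pcdhb22.

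Some beta members lay higher in BrM, and the filter decided the calls of Pcdhb7 and Pcdhb13. Pcdhb14 and Pcdhb17 lay above the parental libraries in all BrM libraries without passing (log2 fold changes 1.03 and 0.78, adjusted p = 0.073 and 0.0672). Pcdhb7 was below the filter, with 11, 13.4 and 19.6 in BrM libraries, against 5.09, 3.29 and 4.72 in parental libraries. Pcdhb13, also below it, counted 6.10, 9.56 and 13 in BrM libraries, against 2.04, 2.47 and 1.89 in parental libraries. With the filter set at a mean of 1, both were called higher (adjusted p = 0.0368 for Pcdhb7 and 0.0289 for Pcdhb13), and Pcdhga2 was called lower (adjusted p = 0.0364). Of the 25 family members of mean 1 to 10 that this filter added, 3 were called higher and 2 lower. Over all genes 25.2% were called at that filter. Pcdhb12 counted 4.88, 10.5 and 15.8 in BrM libraries, against 3.05, 1.65 and 3.78 in parental libraries and did not pass there (adjusted p = 0.0857). The other members with a mean of at least 5 below the filter, Pcdhga9, Pcdhb9, Pcdhga3, Pcdhga11 and Pcdhb5, had 12 to 18 reads in BrM and 15 to 44 in the parental line, with overlapping groups. The alpha array was all but undetected in both lines: of 15 members none was tested, 13 were at 0 in all libraries, and the summed scaled count reached at most 0.96 in BrM and 1.02 in the parental line.

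Other genes of cadherin adhesion were read from lists by role. Of 22 catenin and plaque genes 18 were tested, with 3 higher, 2 lower and 13 not passing (median log2 fold change 0.08). The 27.8% called is near the 28.1% called over all tested genes. Plakophilin 3 (Pkp3), a desmosomal plaque protein, was 1.70-fold higher, at 4366 ± 412 in BrM and 2568 ± 191 in parental libraries (SD, n = 3 each; adjusted p = 0.00723). β-Catenin (Ctnnb1), which binds the tail of classical cadherins and also acts in Wnt signalling, was 2.05-fold lower, at 46110 ± 6239 in BrM and 94640 ± 15670 in parental libraries (adjusted p = 0.00989). Periplakin (Ppl), a linker of plaques to filaments, was 1.61-fold lower (adjusted p = 0.0101). The call of Pkp3 was lost with the 4 numbered libraries and their number as a block (adjusted p = 0.0957, from 6e-07 over the 19 alternatives). Without BrM replicate 2 the calls of Ctnnb1 and Ppl were lost, and over the 19 alternatives their adjusted p ran up to 0.0538 and 0.163. Of 14 other genes of the cadherin superfamily 6 were tested and 2 were lower (33.3% called), with a median log2 fold change of -1.26. The photoreceptor cadherin Cdhr1 counted 264 ± 113 in BrM and 1939 ± 1188 in parental libraries, 6.95-fold lower (adjusted p = 0.0126), and the calsyntenin Clstn3 was 8.58-fold lower (adjusted p = 0.0426). The call of Clstn3 was lost in 8 of the 19 alternatives, among them those without BrM replicate 2 or 3 or parental replicate 1 or 2 (adjusted p 0.012 to 0.139 over all 19), and its log2 fold change of -3.10 was -2.48 without BrM replicate 2 and -3.90 without parental replicate 3.

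Of 17 genes for the shedding and processing of cadherins, all tested, 3 were higher, 5 lower and 9 did not pass. That is 47.1% called, beside 28.1% of all tested genes, with a median log2 fold change of 0.08. Furin, the protease that matures classical cadherins and several sheddases, was 4.01-fold lower, at 1662 ± 173 in BrM and 6655 ± 351 in parental libraries (SD, n = 3 each; adjusted p = 0.000235). Cbll1 (Hakai), a ubiquitin ligase that takes E-cadherin off the membrane, was 2.70-fold higher (adjusted p = 0.00171, lost at 0.0572 with the numbered libraries as a block, the highest of 19), and the sheddase Adam15 was 2.55-fold lower (adjusted p = 0.0027). Of 21 repressors and activators of E-cadherin 20 were tested, with 5 higher, 7 lower and 8 not passing. That is 60% called, beside the same 28.1%, with a median log2 fold change of -0.20. The 3 with the smallest p were all repressors and all lower: Zeb1 counted 41.7 ± 13.7 in BrM and 1176 ± 231 in parental libraries, 28.3-fold lower (adjusted p = 0.000256). Zeb2 was 10.3-fold lower (adjusted p = 0.000121) and Twist2 40.7-fold lower (adjusted p = 0.000123). Not all repressors fell: Snai3, named after its values were seen, was 11.5-fold higher, at 230 ± 49.6 in BrM and 21.6 ± 12.3 in parental libraries (adjusted p = 0.00462). Snai1 and Twist1 did not pass (adjusted p = 0.738 and 0.138). The other called genes of the list were Snai2, Tcf4, Foxc2 and Klf4, all lower, and Ovol1, Esrp1, Esrp2 and Elf3, all higher. These too are named after their values were seen, and the call of Esrp1 was lost in 11 of the 19 alternatives. Cdh1, Zeb1, Zeb2 and Twist2 were thus lower, and Snai3 higher, in the same libraries. Whether these changes are related was not tested.

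Zeb and Snail factors bind the sequence CAGGTG. That hexamer, on either strand (CACCTG in reverse), was found in the 250 bases before the RefSeq start of 2 of the 12 tested members that had such a window off chromosome 18, Fat1 and Pcdh15, beside 17.2% of all 32851 windows. None of the 3 windows printed holds it. Cdh1, Cdh3 and Cdh13 had no such window, and Cdh2 was left out as a gene on chromosome 18. The hexamer was thus not sought before these genes. Of 10 partners of FAT and Dachsous cadherins 7 were tested, with 1 higher, 1 lower and 5 not passing (median log2 fold change 0.14). The 28.6% called is near the 28.1% called over all tested genes. Evl, an actin regulator of the Ena/VASP family, was 32.4-fold higher (adjusted p = 0.000231), and Lix1l, related to the fly gene lowfat, was 33.2-fold lower (adjusted p = 0.00181), with a log2 fold change of -5.05 over all libraries and -5.71 without BrM replicate 1. Of 14 regulators of the clustered protocadherins, chiefly CTCF and the cohesin complex, 13 were tested and limma called 0, with 1 at an unadjusted p under 0.05, and edgeR and DESeq2 called 0. Without BrM replicate 1, limma called Smc3 and Lbr higher and Stag1 and Wiz lower, when 47.2% of all genes were called. These genes are named after their values were seen. The cohesin subunits of highest mean, Rad21 and Smc1a, counted 14720 ± 3215 and 6478 ± 2250 in BrM and 13860 ± 1446 and 6266 ± 505 in parental libraries (SD, n = 3 each; adjusted p = 0.832 and 0.966).

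BrM replicate 1 also stood apart within the family. It lay at least 2-fold above both other BrM libraries for 8 of the 47 tested members and at least 2-fold below both for 7. Those above included Cdh12, Cdh17, Cdh23, Fat4 and Dsc2, and those below included Cdh2 and Pcdh19. Between BrM replicates 2 and 3, 3 of the 47 tested members differed at least 2-fold, while BrM replicate 1 differed so from replicate 2 at 16 and from replicate 3 at 21, and parental libraries from each other at 8 to 11. Over all alternatives, 13 members kept their call in each of the 19: Cdh2, Cdh3, Cdh12, Cdh13, Cdh17, Cdh19, Pcdhb22, Pcdhga6, Pcdhgb4, Pcdhgb7, Pcdhgb8, Pcdhgc3 and Pcdhgc4.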

How the data were processed

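Libraries were made from polyadenylated RNA with TruSeq RNA v2 or NEBNext Ultra and sequenced on a HiSeq, per the labels' protocols. The deposited signal values are normalised read counts, made by the authors from gene counts with 1 factor per library; the submitters' processing notes list STAR and HTSeq, without versions or strand setting, and GRCm38 beside GRCh38. Every library had 100% of its values at a whole number of reads (tolerance 0.01 read), so whole reads were recovered and given to edgeR 4.0.16 and DESeq2 1.42.0 as alternatives, which called 3753 and 5075 genes. The main test was limma 3.58.1 (R 4.3.3) on log2(value + 1) with an intensity trend, the group alone in the model, two-sided, with Benjamini-Hochberg adjustment over the 13821 genes whose mean reached 10 and a threshold of 0.05. Fold changes are on that scale and can understate the change of low genes. They need not do so where single libraries are at 0: the log2 fold change of Cdh2 was -7.02 in limma and -6.72 in DESeq2. Where a group held 1 to 3 reads, the ratio of scaled reads is given with an exact 95% interval. Column 3 of each line matches no numbered title and was placed by group.

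The members, lists and tests were chosen with earlier results of these data known, and no list was tested as a set. Named were each tested member outside the clusters, the 6 called clustered members with the smallest p, members below the filter with a mean of at least 5, Cdh4 and Cdh5, and up to 3 called genes per list (with none called, the 2 of highest mean). Positions came from GENCODE M21 (GRCm38), which matched 104 of the 107 members, and promoter windows from RefSeq (GRCm38.p6), which held 26 members off chromosome 18. Alternatives were other pseudocounts, filters and scalings, no trend, both count tools, 2 forms of a replicate block, averages of BrM libraries and leaving out each library. The average of BrM replicates 2 and 3 was added after seeing the data. Figures were drawn with matplotlib 3.10.9. The series' 5 libraries of the human line HCC1954 were not analysed here.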

Additional observations from a re-analysis of the deposited data

How the results depend on the processing

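The number of members called stayed within 1.5 times of 22 under all 19 alternatives, from 15 (mean of BrM replicates 2 and 3 as 1 library) to 27 (filter at a mean of 1), and leaving out a library gave 16 to 26. No member called with all libraries changed direction under any alternative. Of the 25 that did not pass, 8 did so in 1 or more (Fat1, Dsg3, Pcdh19, Pcdhb16, Pcdhga4, Pcdhga5, Pcdhgb1 and Pcdhgb2), with no call on either side. The other genes of cadherin adhesion called numbered 29, and 20 to 40 under the alternatives. Of all genes tested, 3881 were called, but 2279 with BrM replicates 2 and 3 averaged and 2191 to 6519 with a library left out, the highest without BrM replicate 1. Scaling to a common upper quartile moved the median of all genes by 0.107 to 0.06 (log2) and the share of calls that were higher to 52.7%, from 43.6%, and turned the direction of Dsg3 and Pcdh19. Clustered members called numbered 13 without a trend, against 8, and FAT members called ranged from 0 to 2. Of 81 tested list genes 16 changed direction in 1 or more alternatives, none of them called with all libraries. Among these only Lbr was called in the turned direction, without BrM replicate 1, with a log2 fold change of 0.40 (-0.43 to 0.40 with a library left out), against -0.14 with all libraries; the cause was not tested.

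Libraries of the same replicate number did not deviate together in each pair (correlations of 0.304, -0.088 and 0.326 for numbers 1, 2 and 3). Each deviation is taken from the mean of its own group, so these correlations are not independent of each other. They cannot decide whether the numbers pair libraries, and column 3 of either line carries no number in its title. With the number as a replicate block of 3 levels, 21 members and 4040 genes were called, and Dsc2 passed (adjusted p = 0.0457). With the replicate block on the 4 numbered libraries alone, 16 members and 2029 genes were called. Members with few reads, such as Cdh4, Cdh5 and the alpha array, could not be tested at this depth.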
